A study of Mus musculus with 16 samples.

Results

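Tumor-associated neutrophils (TANs) were examined in single-cell RNA sequencing of 2208L mouse mammary tumors, in which RNA molecules were counted as unique molecular identifiers (UMIs) per gene and cell. A cell was taken as a TAN when S100a8 and S100a9 held at least 2% of its UMIs and it had at least 2 UMIs of Csf3r, Cxcr2, G0s2 and Il1r2 together, fewer than 20 UMIs of C1qa, C1qb and C1qc, and at most 4 UMIs of Krt8, Krt18 and Epcam. This rule found 638 TANs among 13830 kept cells, namely 206 of 1974 cells with vehicle, 97 of 4739 with IACS-70654, 244 of 2053 with anti-PD-1 and 91 of 5064 with the combination. 2208L is a Trp53-null mammary tumor that is passaged by transplantation into WT female BALB/c mice, so all 4 conditions carry the same tumor. IACS-70654, an oral compound dosed for 3 days and then withheld for 2, inhibits the bromodomain of the histone acetyltransferases CBP and P300, and anti-PD-1 is an antibody against an inhibitory receptor of T cells. The series record gives 7 days of treatment for vehicle and IACS-70654, and the length in both arms with anti-PD-1 is not given in the sources used here. Cells were tagged with CellPlex oligonucleotides, for which the labels give a 3′ protocol (they name a 5′ protocol for another kind of tag). Each condition is 1 library of sorted live cells pooled from 3 mice, so tumor values have no replicate, their 95% intervals cover counting error only, and no test between tumor conditions was made.

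Neutrophils are short-lived granulocytes that are made in BM, where granule proteins are produced in successive waves as the cells mature, and they leave BM for blood and tissue with little further division. S100a8 and S100a9 encode calprotectin, an abundant cytosolic protein of neutrophils, and Csf3r encodes the receptor for G-CSF, which drives their production. In tumors, neutrophils can take on a suppressive state, for which they are called polymorphonuclear myeloid-derived suppressor cells (MDSCs), with IL-1 family cytokines, hypoxia responses and lipid metabolism among its known features. CBP and P300 acetylate histones at enhancers and promoters, and their bromodomain binds acetylated lysine.

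The label was checked on genes that the rule did not use, and RNA of other cells on genes that it did. Among genes with at least 200 CPM in TANs of each library, the 12 that most separated TANs from all other kept cells, as a description, were Wfdc21, Stfa2l1, Cstdc5, Cstdc4, Ifitm1, Acod1, Hdc, Trem1, Clec4e, Clec4d, Slfn4 and Lrg1. Their level in TANs exceeded that in other cells by 25.1-fold for Lrg1 to 82.5-fold for Wfdc21 in the library where the ratio was smallest. Most of these are known genes of neutrophils, such as the receptor Trem1 and the histamine-forming enzyme Hdc. C1q, keratin and Epcam UMIs are capped by the rule, so their low level in TANs is no support for the label and is given as the remaining RNA of other cells. C1q genes, which mark macrophages, were in TANs at 3.35%, 2.15%, 3.23% and 2.77% of their level in macrophages with vehicle, IACS-70654, anti-PD-1 and the combination, respectively, and keratin and Epcam RNA at 2.78% to 3.85% of its level in tumor cells. T and NK cells, which should lack both, held 1.27% to 1.61% and 1.76% to 2.24%, but they were chosen with C1q under 5 UMIs, a tighter cap than for TANs. With vehicle, IACS-70654, anti-PD-1 and the combination, 51.9%, 55.7%, 59.8% and 61.5% of TANs held a C1q UMI. A keratin or Epcam UMI was in 21.6% to 25.3% of TANs. Their median of Csf3r, Cxcr2, G0s2 and Il1r2 UMIs together was 21, 17, 24 and 15 in that order. TANs held a median of 1281, 1443, 1348 and 1268 UMIs in the same order, and their sums were 279936, 155624, 376722 and 142135 UMIs. No barcode was shared between tumor libraries (0 of them). Just above the threshold on S100 genes, from 2% to 2.5%, lay 25, 15, 43 and 12 TANs, and just below it, from 1.5%, 33, 13, 60 and 15 cells.

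TANs made up a smaller share of the tumors treated with IACS-70654, both alone and with anti-PD-1. They were 10.4% of kept cells with vehicle (95% exact binomial interval 9.12% to 11.9%) and 2.05% with IACS-70654 (1.66% to 2.49%), which is 5.10-fold lower (interval 3.99 to 6.56). With anti-PD-1 they were 11.9% (10.5% to 13.4%) and with the combination 1.80% (1.45% to 2.20%), which is 6.61-fold lower (5.18 to 8.51). Both libraries with the inhibitor therefore lay below both without it, and these pairs share no library. Anti-PD-1 differed from vehicle by a log2 ratio of 0.19 (-0.09 to 0.46) and the combination from IACS-70654 by -0.19 (-0.62 to 0.24), and both intervals include 0. Other measures gave anti-PD-1 above vehicle by a log2 ratio of 0.64 (0.37 to 0.91) for TANs per macrophage, 0.28 (0.0035 to 0.55) for the share of cells other than tumor cells and 0.26 (0.08 to 0.45) for cells with at least 4 marker UMIs at any S100 share. For the combination against IACS-70654 these were 0.01 (-0.42 to 0.44), -0.06 (-0.49 to 0.37) and 0.15 (-0.09 to 0.40).

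**Figure D1:**
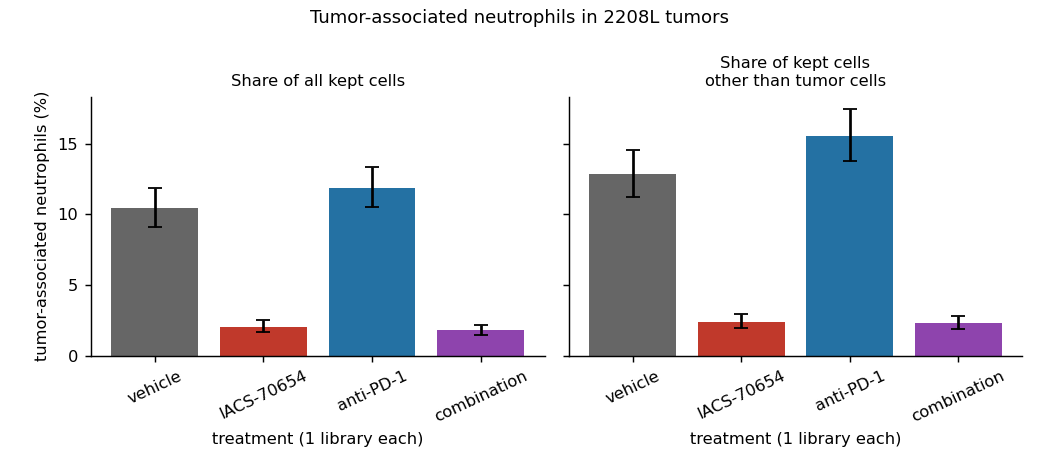
TANs as a percentage of all kept cells (left) and of kept cells other than tumor cells (right) in the 4 tumor libraries, with bars for the share and error bars for the 95% exact binomial interval. The libraries with IACS-70654 and the combination sit near 2% on the left, below the libraries with vehicle (10.4%) and anti-PD-1 (11.9%).

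Other cell types of the tumors moved beside the TANs. Macrophages, taken as cells with at least 20 C1q UMIs, were 35.8% of kept cells with vehicle, 62.2% with IACS-70654, 26.2% with anti-PD-1 and 54.2% with the combination. Per 100 macrophages there were 29.2, 3.29, 45.4 and 3.32 TANs, in the same order, so that the ratio of TANs to macrophages was 8.86-fold lower with IACS-70654 than with vehicle (6.93 to 11.4) and 13.7-fold lower with the combination than with anti-PD-1 (10.7 to 17.6). Tumor cells were 18.7%, 15.3%, 23.6% and 22.5% of kept cells, and leaving them out of the denominator gave TAN shares that were 5.31-fold and 6.71-fold lower. TANs were also fewer beside each other cell type counted. Per 100 monocytes there were 129, 31.1, 129 and 27.3 TANs, per 100 tumor cells 55.8, 13.4, 50.4 and 8.004, and per 100 T and NK cells 248, 114, 210 and 76.5, with vehicle, IACS-70654, anti-PD-1 and the combination. Shares are of captured cells and do not give the number of cells in a tumor. Among cells with at least 2 UMIs of the neutrophil marker genes, TANs were 42.2% and 41.3% without the inhibitor and 27.2% and 22.1% with it, so the threshold on S100 genes entered the result. With no such threshold and at least 4 marker UMIs, an alternative chosen after seeing the data, the share was 3.98-fold (3.40 to 4.66) and 4.29-fold (3.72 to 4.96) lower.

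RNA was then summed over the TANs of each library and scaled to CPM, the UMIs of a gene per 1e6 UMIs of the sum. The sums without the inhibitor held 279936 and 376722 UMIs and those with it 155624 and 142135. UMIs given below without CPM therefore overstate falls and understate rises with the inhibitor. Among 2135 genes with at least 100 CPM in 1 of the 4 sums, a gene was called in a pair when it differed by at least 2-fold and its interval lay on that side of 1. With IACS-70654 against vehicle, 152 genes (7.12%) were higher and 91 (4.26%) lower, and with the combination against anti-PD-1, 149 (6.98%) were higher and 110 (5.15%) lower. In both pairs, 38 genes (1.78%) were higher and 41 (1.92%) lower, whereas 3 (0.141%) were called in opposite directions. The median log2 ratio of all genes was 0.13 in the first pair and 0.11 in the second. It was -0.004 and 0.008 over 382 genes with at least 500 CPM. The limit of 100 CPM takes fewer UMIs in the smaller sums with the inhibitor, so genes with few UMIs pass it more easily there. Scaling by TMM balances the sums over genes other than the most abundant and most changed. It moved the medians of all genes to -0.25 and -0.19 and left 10 genes higher and 88 lower in both pairs. Of the called genes, 10.2% were then higher in place of 48.1%. Across genes, which are not independent replicates, the ratios of the pairs had a Pearson correlation of 0.47 over 2130 genes and 0.67 over 382 genes with at least 500 CPM.

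**Figure D2:**
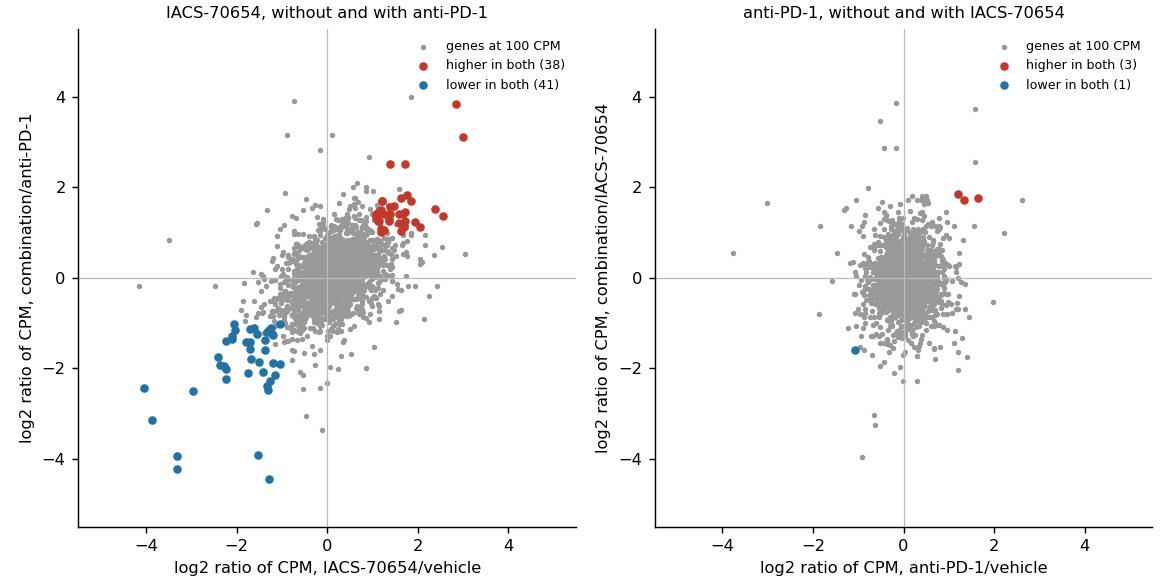
Log2 ratios of CPM in TANs, each point 1 gene, for IACS-70654 without (x axis) and with (y axis) anti-PD-1 on the left and for anti-PD-1 without (x axis) and with (y axis) IACS-70654 on the right, with genes called in both pairs in red (higher) and blue (lower). On the left 38 genes are higher and 41 lower in both pairs, and on the right 3 and 1.

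The 12 genes with the largest differences in the lower group, by the smaller ratio of the pairs, were Prok2, Ltf, Chil1, Olfm4, Ambp, Mefv, Asprv1, Mirt2, Il1f9, Dhx40, Gla and Ifitm6. Prok2 and Olfm4 met the rule in 11 and 10 of 17 alternatives and neither did without the TAN with the most UMIs of the gene. Chil1 (chromosome 1, 134182176 to 134190181, GRCm38), a chitinase-like protein of neutrophil granules, had 79, 3, 117 and 5 UMIs in TANs with vehicle, IACS-70654, anti-PD-1 and the combination, or 282, 19.3, 311 and 35.2 CPM. Its log2 ratio was -3.87 (-6.18 to -2.27) for IACS-70654 against vehicle and -3.14 (-4.79 to -1.88) for the combination against anti-PD-1. After thinning TANs to 700 UMIs each, Chil1 was detected in 16.7% of TANs with vehicle and 14.2% with anti-PD-1 but in 2.13% and 2.25% with IACS-70654 and the combination, beside 24.8%, 27.05%, 2.06% and 4.40% of TANs with vehicle, anti-PD-1, IACS-70654 and the combination before thinning. T and NK cells, which should lack it, held a Chil1 UMI in 1.74% of cells with anti-PD-1 and in 0 of 83, 0 of 85 and 0 of 118 cells with vehicle, IACS-70654 and the combination. The 2.13% and 2.25% of TANs are 2 cells each. Ly6g (chromosome 15, 75155240 to 75159126), the surface antigen by which mouse neutrophils are sorted, had 13 and 39 UMIs with vehicle and anti-PD-1 and 0 with both treatments that hold the inhibitor. Against a floor of 3 UMIs per library, its log2 ratio was -1.27 or lower and -2.29 or lower. Its UMIs came from 7 and 12 TANs, so most TANs had no Ly6g UMI in any condition at this depth. Ly6g met the rule in 10 of 17 alternatives and did not, for example, with S100 genes at 5% or more, without the 5% of TANs with the most UMIs or without the TAN with the most Ly6g UMIs.

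Other genes of neutrophil identity were in the same group. Asprv1, a retroviral-like aspartic protease, had 725, 154, 632 and 155 CPM, with log2 ratios of -2.23 (-2.91 to -1.62) and -2.03 (-2.73 to -1.40). Slpi, a secreted inhibitor of neutrophil elastase, had 589, 193, 552 and 253 CPM. Retnlg, a resistin-like protein of mature neutrophils, had 932, 379, 2458 and 113 CPM, but these came from 30, 7, 40 and 5 TANs, and without the 5% of TANs with the most UMIs its log2 ratio in the first pair was 0.47. Of 16 neutrophil identity genes with at least 100 CPM, 4 were lower in both pairs (Ly6g, Retnlg, Slpi and Asprv1) and 0 higher, beside 1.92% and 1.78% of all genes. The median log2 ratios were -0.56 and -0.77, beside 0.13 and 0.11 for all genes. In the list of secondary and tertiary granule genes, 3 of 12 were lower (Chil1, Ltf and Ltb4r1), beside 1.92% of all genes. The medians were -0.03 over the genes with a ratio (5 above and 5 below 0) and -1.26 (4 above and 8 below 0). The lactoferrin gene Ltf had 18, 1, 149 and 3 UMIs, of which 87.9% in the anti-PD-1 library came from 1 TAN, and without the 5% of TANs with the most UMIs its log2 ratio in the second pair was 0.49. Ltb4r1 encodes a leukotriene B4 receptor that guides neutrophils to sites of inflammation, which is no granule protein. It had 222, 64.3, 207 and 77.4 CPM.

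Genes of inflammation differed among themselves. Il1f9 (chromosome 2, 24186476 to 24193568), which encodes the IL-1 family cytokine IL-36 gamma, had 282, 83.5, 305 and 70.4 CPM, with log2 ratios of -1.76 (-2.73 to -0.90) and -2.12 (-3.22 to -1.19). Mefv, which encodes the inflammasome protein pyrin, had 34, 4, 50 and 4 UMIs, a log2 ratio of -2.24 in both pairs. Traf1, an adaptor of TNF receptors and a target of NF-kB, had 51, 6, 49 and 7 UMIs. Il1b, the cytokine that marks MDSCs, had 25327, 22162, 25377 and 23562 CPM in the 4 libraries, with log2 ratios of -0.19 (-0.25 to -0.13) and -0.11 (-0.16 to -0.05), far from the 2-fold rule. Of 11 IL-1 family genes, 1 was lower (Il1f9) and 0 higher, with medians of -0.25 and -0.51. Of 13 NF-kB pathway genes, 1 was lower (Traf1) and 0 higher. Each of these 2 counts is 1 gene, and among all genes 1.92% were lower and 1.78% higher in both pairs. Of 16 MDSC effector genes, 0 were called in both pairs. The C-type lectin receptors Clec4e and Clec4d, which are in that list, lay near the limit, with log2 ratios of -0.98 and -1.01 for Clec4e and -0.89 and -0.74 for Clec4d.

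**Figure D3:**
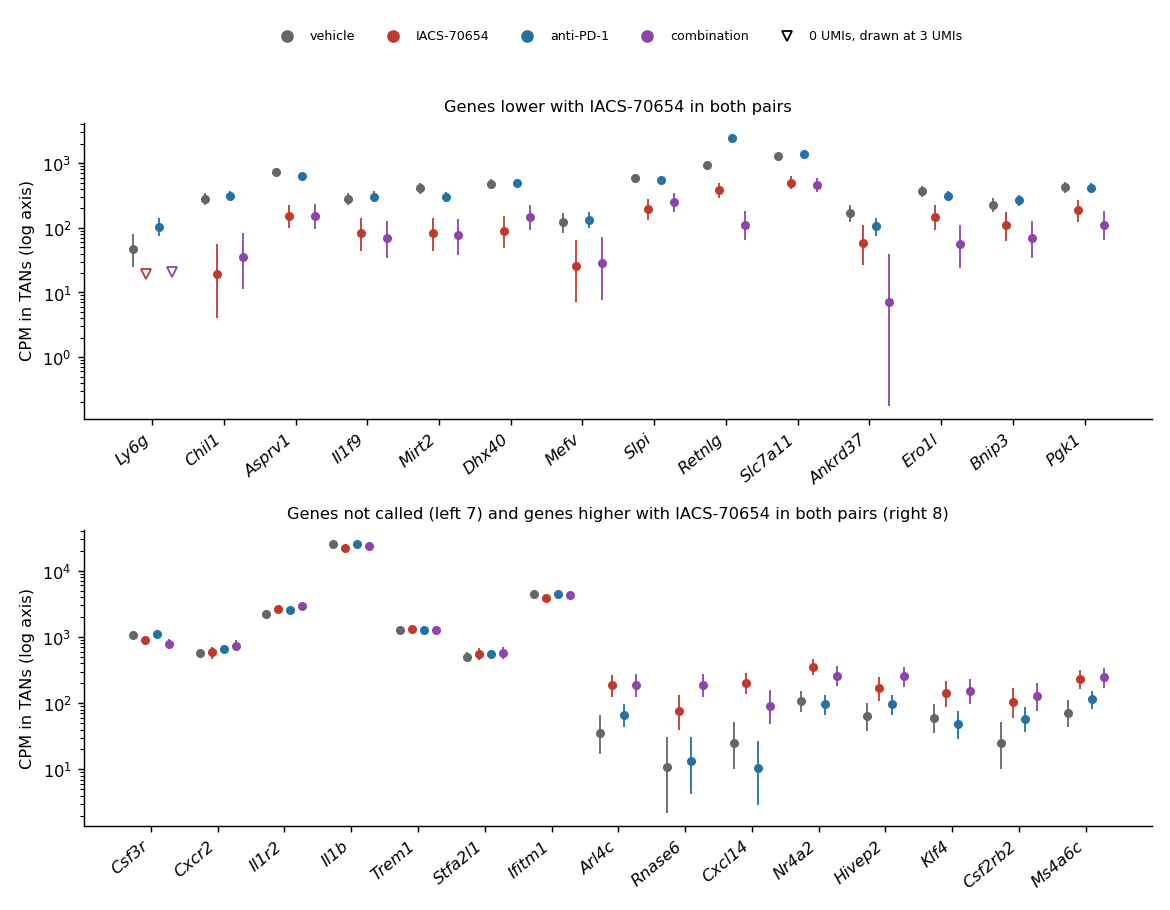
CPM of named genes in TANs of the 4 libraries on log axes, with points for the value, lines for the 95% Poisson interval and open triangles for 0 UMIs, drawn at 3 UMIs. In the upper panel both libraries with IACS-70654 sit below both without it for each of the 14 genes, and in the lower panel the 7 genes on the left differ by less than 2-fold in both pairs. Of these 7, Csf3r, Cxcr2 and Il1r2 are in the rule for TANs, so their level is partly set by it.

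The cystine transporter gene Slc7a11 (chromosome 3, 49892526 to 50443614), which supplies cysteine for glutathione, was among the most abundant of the lower genes. It had 363, 78, 530 and 66 UMIs, or 1297, 501, 1407 and 464 CPM, with log2 ratios of -1.37 (-1.74 to -1.01) and -1.60 (-1.99 to -1.23). Hmox1, which encodes the heme-degrading enzyme heme oxygenase, had 171, 70.7, 173 and 77.4 CPM. In the list of lipid, eicosanoid and iron genes, 2 of 15 were lower (Slc7a11 and Hmox1) and 0 higher, beside 1.92% and 1.78% of all genes, with medians of -0.54 and -0.16. Hmox1 met the rule in 12 of 17 alternatives and did not, for example, without the TAN with the most Hmox1 UMIs. Acod1, which encodes the itaconate-forming enzyme of activated myeloid cells, had 1825, 945, 2556 and 1337 CPM, with log2 ratios of -0.95 (-1.23 to -0.68) and -0.94 (-1.17 to -0.71), short of 2-fold in both pairs. Mirt2, a long noncoding RNA (chromosome 15, 76266461 to 76269839, minus strand) that the annotation lists as antisense, had 114, 13, 113 and 11 UMIs. Dhx40, an RNA helicase gene, had 479, 90.0, 499 and 148 CPM, with log2 ratios of -2.41 (-3.32 to -1.61) and -1.76 (-2.48 to -1.10). Igfbp6, which encodes a binding protein of insulin-like growth factors and was singled out after its values were seen, had 747, 173, 719 and 295 CPM.

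A few glycolysis and hypoxia genes were in the lower group, which holds 1.92% of all genes. Hypoxia-inducible factor (HIF) binds the bases ACGTG and drives genes of glucose use and survival at low oxygen. Of 14 glycolysis genes with at least 100 CPM, 13 lay below a log2 ratio of 0 in the first pair and 14 in the second, beside 41.7% and 43.8% of all genes, with medians of -0.61 and -0.75, although only Pgk1 was called in both. Pgk1, which encodes phosphoglycerate kinase, had 425, 186, 417 and 113 CPM. With no S100 threshold and at least 4 marker UMIs, however, its log2 ratio in the second pair was 0.23. Of 15 hypoxia-responsive genes, 3 were lower in both pairs (Ankrd37, Ero1l and Bnip3) and 0 higher, with medians of -0.22 and -0.76. These met the rule in 14, 16 and 13 of 17 alternatives, and Ankrd37 and Bnip3 did not with S100 genes at 5% or more. Ankrd37 had 47, 9, 40 and 1 UMIs. Ero1l, which encodes a disulfide-forming oxidase of the endoplasmic reticulum, had 103, 23, 119 and 8 UMIs. Bnip3, which encodes a mitophagy receptor, had 63, 17, 100 and 10 UMIs. Counts in UMIs overstate these falls, since the sums with the inhibitor were smaller. In CPM, both libraries with the inhibitor lay below both without it for each of these genes, as they did for 21% of the 2135 genes. Vegfa, another target of HIF, was higher with the inhibitor, with 104, 251, 82.3 and 134 CPM, and was called in the first pair (log2 ratios 1.27, 0.54 to 2.02, and 0.70, -0.21 to 1.57).

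The promoters of Ankrd37, Bnip3 and Pgk1 are shown because these 3 members of the hypoxia and glycolysis lists were lower in TANs and fell in BM neutrophils (Bnip3 and Pgk1 with TMM scaling only), and each holds ACGTG, on either strand, in the 250 bases before its start (RefSeq, GRCm38.p6). Capitals mark the matches, and in Bnip3 they are a pair of overlapping matches on opposite strands.
Ankrd37, chr8:45999851-46000100, minus strand: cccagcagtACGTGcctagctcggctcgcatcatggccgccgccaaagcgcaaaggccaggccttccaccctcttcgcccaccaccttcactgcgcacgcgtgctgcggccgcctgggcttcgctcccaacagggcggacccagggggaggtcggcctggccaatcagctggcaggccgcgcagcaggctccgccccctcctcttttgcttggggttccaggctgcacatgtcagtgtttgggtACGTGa
Bnip3, chr7:138909507-138909756, minus strand: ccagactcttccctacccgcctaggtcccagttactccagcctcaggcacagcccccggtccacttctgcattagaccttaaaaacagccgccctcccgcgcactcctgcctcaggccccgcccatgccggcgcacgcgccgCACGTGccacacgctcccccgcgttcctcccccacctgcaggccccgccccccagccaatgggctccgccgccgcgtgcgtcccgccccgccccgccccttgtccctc
Pgk1, chrX:106186850-106187099, plus strand: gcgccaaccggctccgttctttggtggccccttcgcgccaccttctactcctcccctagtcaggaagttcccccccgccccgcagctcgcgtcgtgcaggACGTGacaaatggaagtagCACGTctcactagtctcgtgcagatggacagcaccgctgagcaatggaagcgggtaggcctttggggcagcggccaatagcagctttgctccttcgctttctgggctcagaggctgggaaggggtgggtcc
Of the 36 lower genes with a promoter in the table, 12 (33.3%) held ACGTG, against 8 of the 36 higher genes (22.2%), 26.1% of the 1704 promoters of genes with at least 100 CPM and 16.6% of all 32851 promoters. Of the promoters of listed hypoxia-responsive genes, 10 of 18 (55.6%) held it, and of glycolysis genes 8 of 19 (42.1%). For TTGCNNAA, a core motif of C/EBP factors, which direct granulocyte genes, the shares were 6 of 36 lower genes (16.7%: Slpi, Slc7a11, Tnfrsf23, Ltf, Ly6g and Retnlg), 3 of 36 higher genes (8.33%), 8.98% of expressed genes and 9.56% of all promoters. A match is a description of these letters and shows no binding.

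In the higher group, Arl4c (chromosome 1, 88673125 to 88702221, minus strand), a small GTPase gene, had 10, 29, 25 and 27 UMIs, or 35.7, 186, 66.4 and 190 CPM, with log2 ratios of 2.38 (1.31 to 3.58) and 1.52 (0.68 to 2.36). Rnase6, an antimicrobial ribonuclease gene, had 3, 12, 5 and 27 UMIs. Cxcl14, a chemokine gene, had 7, 31, 4 and 13 UMIs in 7, 9, 3 and 7 TANs. Nr4a2, an orphan nuclear receptor induced by acute signals, had 107, 353, 95.6 and 260 CPM, with log2 ratios of 1.72 (1.05 to 2.41) and 1.45 (0.74 to 2.15). Hivep2 and Klf4, which encode transcription factors, had 64.3, 167, 95.6 and 253 CPM and 60.7, 141, 47.8 and 155 CPM. Ccl2, the monocyte-attracting chemokine gene, had 17, 29, 14 and 18 UMIs, and 93.1% of those in the IACS-70654 library came from 1 TAN, without which its log2 ratio in the first pair was -1.96. The other genes with the largest changes of this group were Sod1, Dip2c, Ms4a6b, Igtp, Ddrgk1 and Tent5a, with 6 to 25 UMIs in each library. Of these, Dip2c met the rule in 7 of 17 alternatives, Tent5a in 11 and Igtp in 12, and each had a ratio below 0 in 1 pair under 1 alternative (-0.0096, -0.77 and -0.17). After TMM scaling 10 of these genes met the rule, among them Arl4c, Rnase6, Cxcl14, Nr4a2, Hivep2 and Igtp. Nr4a2 and Hivep2 did not meet it with S100 genes at 1% or 5%, nor with no S100 threshold and at least 4 marker UMIs. Sod1 met it in 9 of 17 alternatives and Klf4 in 13, and neither did after TMM scaling.

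The higher group held many genes that other cells express at a higher level than TANs. Of its 38 genes, 19 (50%) were at a higher CPM in macrophages or monocytes than in TANs in all 4 libraries, against 28.5% of the 2135 genes and 1 of the 41 lower genes (2.44%). Lower genes had to reach 100 CPM in TANs without the inhibitor and higher genes did not, so these shares are not on equal terms. Macrophages were also a larger share of the libraries with the inhibitor, as given above, while C1q RNA in TANs was at 686 and 611 CPM without and at 527 and 633 CPM with the inhibitor. By the same rule applied to macrophages, 0 of the 38 and 0 of the 41 genes were called in both pairs. Beside this stand 1 (0.0468%) and 2 (0.0937%) of all 2135 genes. In monocytes 2 of the higher and 3 of the lower genes were called, beside 9 (0.422%) and 8 (0.375%) of all 2135 genes. A call needs 100 CPM in a sum of that class, and how many of these genes reached it was not counted. These counts therefore do not show that the other genes were unchanged in those cells. Markers of dendritic cells summed to 486 and 427 CPM in TANs without and 662 and 788 CPM with the inhibitor, and of the 4 of 12 at 100 CPM, 0 were called in both pairs, with median log2 ratios of 0.56 over the 3 with a ratio in the first pair and 0.94 over 4 in the second. Monocyte markers summed to 1100.2 and 1471 CPM without and 1189 and 1773 CPM with it. Of the 2 of 10 at 100 CPM, 1 (Ms4a6c) was higher in both pairs, beside 1.78% of all genes. Macrophage markers summed to 5716 and 3361 CPM without and 3348 and 3405 CPM with it, with 0 of 7 called. The part of RNA from other cells in the higher group was not tested.

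Interferon and antigen presentation genes had medians above that of all genes, with few calls. Of 29 type I interferon response genes, 1 was higher in both pairs (the GTPase gene Igtp) and 0 lower. With no S100 threshold and at least 4 marker UMIs, the log2 ratio of Igtp in the first pair was -0.17. The median log2 ratios of the list were 0.63 and 0.28, and 0.31 and 0.01 after TMM scaling. Its members needed 100 CPM in only 1 of the 4 sums, which can be a sum where they are high. Summed over the list, CPM was 7859, 8630, 8879 and 8801 with vehicle, IACS-70654, anti-PD-1 and the combination. This sum was higher with the inhibitor in the first pair only. Ifit3, an antiviral effector gene, had 7, 32, 37 and 20 UMIs, and its CPM was higher with the inhibitor in both pairs. Of 12 MHC class I genes, 0 were called in both pairs, with medians of 0.27 and 0.77, and -0.05 and 0.50 after TMM scaling, so that the direction in the first pair depended on the scaling. H2-K1, which encodes a class I heavy chain, had 879, 1189, 780 and 1604 CPM, with log2 ratios of 0.44 (0.15 to 0.72) and 1.04 (0.78 to 1.29). Of 14 chemokine and cytokine genes, 1 was higher (Ccl2) and 0 lower. Of 16 growth factor and cytokine receptor genes, 1 was higher (Csf2rb2, a chain of IL-3 receptors) and 0 lower. Csf2rb2 met the rule in 8 of 17 alternatives and did not after TMM scaling. Neither Ccl2 nor Csf2rb2 met it without the TAN with the most UMIs of the gene. Among all genes 1.78% were higher and 1.92% lower in both pairs.

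Several genes that define neutrophils or that the inhibitor concerns did not meet the rule. Trem1, a receptor that amplifies neutrophil activation, had 1290, 1311, 1258 and 1273 CPM, the steadiest of the leading genes. Cd84, a marker of MDSCs, had 211, 135, 218 and 120 CPM, with log2 ratios of -0.64 (-1.44 to 0.10) and -0.86 (-1.71 to -0.10). Ccr1, a chemokine receptor, had 940, 662, 802 and 591 CPM. Thbs1, which encodes thrombospondin, had 1 to 3 UMIs per library, too few for a ratio. Crebbp and Ep300, which encode CBP and P300, had log2 ratios of 0.39 (-0.38 to 1.15) and 0.13 (-0.68 to 0.89) for Crebbp and 0.14 (-1.09 to 1.30) and -0.31 (-1.77 to 0.96) for Ep300, so a change up to the ends of these intervals was not detectable at this depth. Of the 92 measured genes of the MDSC signature, 7 were lower in both pairs (Prok2, Asprv1, Igfbp6, S100a6, Upp1, Retnlg and Il1f9) and 0 higher, with medians of -0.22 and -0.26. Among all genes 1.92% were lower and 1.78% higher. The study chose that signature for these samples, so its count is not independent evidence of a direction.

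**Figure D4:**
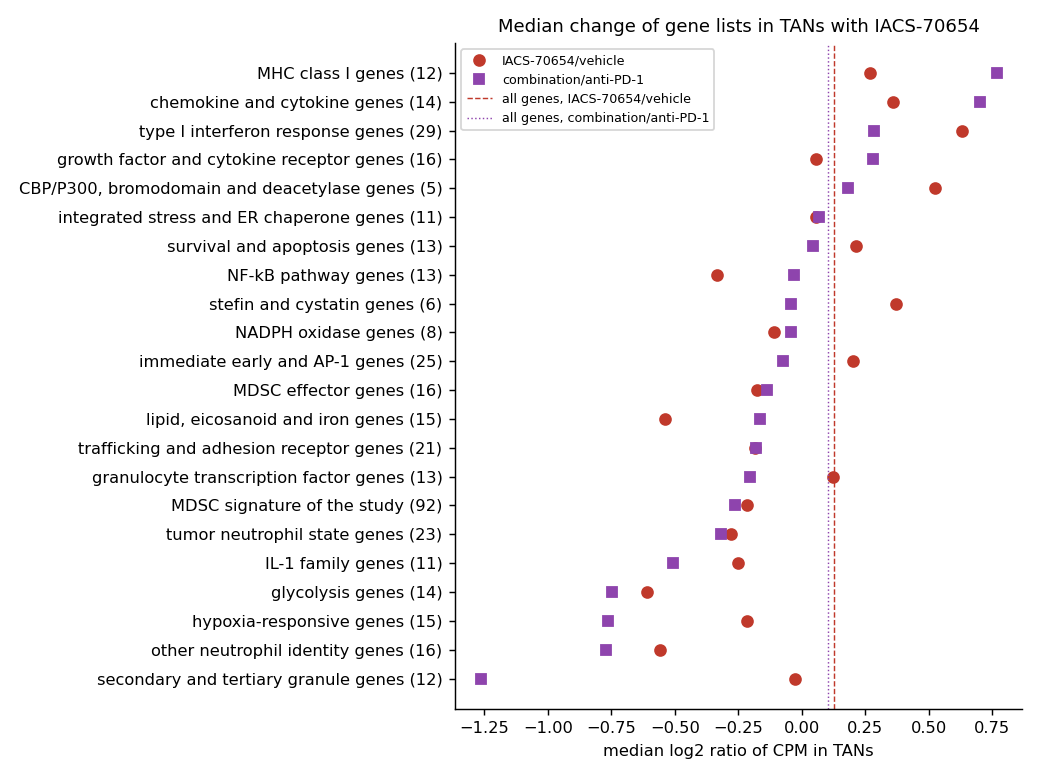
Median log2 ratio of CPM in TANs over the members of each gene list with at least 100 CPM (number in brackets), for IACS-70654 against vehicle (circles) and the combination against anti-PD-1 (squares), with the medians of all genes as dashed and dotted lines. Glycolysis genes (-0.61 and -0.75) and other neutrophil identity genes (-0.56 and -0.77) lie below all genes in both pairs, and the order around 0 of the lists near the lines shifts with the scaling, as for MHC class I genes.

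Anti-PD-1 gave few calls in TANs. Against vehicle 31 genes (1.45%) were higher and 17 (0.796%) lower, and with the combination against IACS-70654 68 (3.19%) and 64 (3%), but 3 genes (0.141%) were higher in both pairs (Ube2q1, Stim2 and Ifitm6) and 1 (0.0468%) lower (Ggps1). Ifitm6, of the interferon-induced membrane proteins, had 59, 10, 247 and 31 UMIs. With no S100 threshold and at least 4 marker UMIs, its log2 ratio of combination to IACS-70654 turned to -0.99 and that of Stim2 to -0.044. Without the 5% of TANs with the most UMIs, that of Ifitm6 turned to -0.040. Across genes the ratios of both anti-PD-1 pairs had a Pearson correlation of 0.03 over 2128 genes. Calls in opposite directions (7 genes, 0.328%) outnumbered those in the same direction.

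The same rule for cells was then applied to CD45+ Ter119- BM cells, which the choice of TANs did not use and which have 2 libraries per group. The groups were non-tumor-bearing WT mice (the label calls them controls) and mice bearing 2208L tumors that received vehicle or IACS-70654. In these groups the rule took 2897 and 2713, 4339 and 5171, and 3753 and 4767 cells, with 15066915 to 36948899 UMIs per library. The sources used here give 7 days and 6 days of treatment for these mice. The series record gives a pool of 3 mice per group, so both libraries of a group may be parts of 1 pool, and p-values then measure the spread between libraries only. These cells held a median of 23.03% to 27.9% of their UMIs in S100a8 and S100a9, above that of TANs (3.95% to 4.59%). A gene was called when its adjusted p in edgeR's quasi-likelihood test was below 0.01 and its log2 change exceeded 0.5 either way. By this, 1822 of 14089 genes (12.9%) rose with IACS-70654 against vehicle and 1384 (9.82%) fell. Without TMM, scaled to library totals, the median of all genes moved from -0.01 to 0.29 and the counts became 3860 higher and 590 lower, so 86.7% rather than 56.8% of the calls were rises, and 27.4% and 4.19% of all genes rose and fell. CPM of BM cells are given on library totals and log2 changes after TMM, so a log2 change lies about 0.29 below the ratio of the CPM beside it.

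The BM sums hold cells of several stages, and Prtn3, a gene of early precursors, had 1028 and 793 CPM with vehicle and 2304 and 2491 CPM with IACS-70654. A change of a gene in these sums cannot be told apart from a change in the shares of the stages, which was not tested. Genes that were lower in TANs with the inhibitor were then read in these sums. Of the 41, 26 fell and 0 rose, with a median log2 change of -0.70, against 9.82% of all genes that fell, and scaled to library totals 18 fell, against 4.19% of all genes, and 0 rose. Chil1 fell from 264 and 271 CPM with vehicle to 87.8 and 88.4 CPM with IACS-70654, beside 228 and 211 CPM in WT, a log2 change of -1.90 (SE 0.04, edgeR adjusted p = 1.8e-14). Ly6g fell from 1732 and 1752 to 774 and 766 CPM, beside 1419.7 and 1366 CPM in WT, a log2 change of -1.47 (SE 0.04, edgeR adjusted p = 5.17e-14). Asprv1 fell by 1.64, Mefv by 1.51, Slc7a11 by 1.37, Prok2 by 1.32, Mirt2 by 1.16 and Il1f9 by 1.07 on the log2 scale. Ankrd37 fell from 6.67 and 7.93 to 1.84 and 1.79 CPM, a log2 change of -2.31 (SE 0.15, edgeR adjusted p = 2.99e-09). Bnip3, Pgk1, Slpi, Ltf, Gla and Retnlg fell by 0.79, 0.57, 0.69, 0.70, 0.69 and 0.54 on the log2 scale, and with library totals none of these 6 was called (-0.50, -0.28, -0.39, -0.40, -0.40 and -0.24). The call of Retnlg was also lost without IACS-70654 replicate 2 and with S100 genes at 5% or more. Dhx40 was not called. On library totals it had 77.0 and 77.7 CPM with vehicle and 91.4 and 86.0 CPM with IACS-70654, and after TMM its log2 change was -0.10 (SE 0.04), so its direction depended on the scaling.

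**Figure D5:**
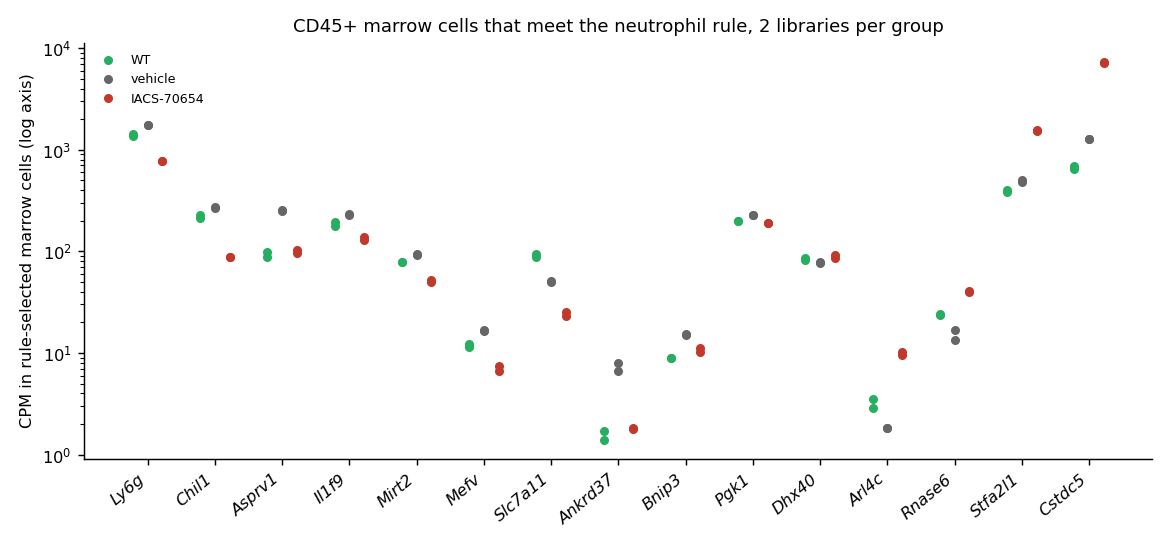
CPM on a log axis of 15 genes in BM cells that meet the neutrophil rule, with each point 1 of the 2 libraries of WT, vehicle and IACS-70654 mice. Chil1, Ly6g and Asprv1 are lower with IACS-70654 than with vehicle, Arl4c, Rnase6, Stfa2l1 and Cstdc5 are higher, and the 2 libraries of a group lie close together.

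In BM, 35 of the 38 genes of the higher group could be tested, 13 rose and 0 fell, with a median log2 change of 0.27, against 12.9% of all genes that rose. With library totals 18 rose, with a median of 0.56, against 27.4% of all genes and a median of 0.29. Of 10 monocyte markers in BM, 3 rose (Plac8, F13a1 and Ms4a6c, the last also among the 13) and 1 fell (Ly6c2), with a median of 0.27. Of 10 macrophage markers, 3 rose (Selenop, Trem2 and Adgre1) and 1 fell (Cd63), with a median of 0.14. The part of RNA from other cells in these rises was not tested. Arl4c rose from 1.82 CPM in both vehicle libraries to 10.1 and 9.50 CPM, a log2 change of 2.13 (SE 0.13, edgeR adjusted p = 1.56e-09). Rnase6 rose by 1.13 and Sod1 by 1.08 on the log2 scale. Ccl2, Igtp and Tent5a were not called. In the list of stefin and cystatin genes, most of which encode cysteine protease inhibitors, 8 of 11 rose and 1 fell (Cst7) in BM, and 9 rose and 0 fell with library totals. Of the 8, Thbs1 encodes no stefin. In TANs 0 of 6 were called in both pairs, beside 1.78% of all genes that were higher. That count needs 2-fold in both pairs and comes from far smaller sums, so it is not on the scale of the BM count. Stfa2l1 rose from 482 and 500 to 1535 and 1579 CPM in BM, a log2 change of 1.37 (SE 0.04), and had 497, 553, 555 and 577 CPM in TANs. Cstdc5 rose by 2.22 and Stfa2 by 1.81 in BM, while their log2 ratios in TANs were 0.26 and -0.70, and 0.49 and -0.02. The difference between BM and tumor was not tested. Primary granule genes, which mark the earliest neutrophil precursors, rose for 6 of 6 in BM (Prtn3, Elane, Mpo, Ctsg, Ms4a3 and Prss57), while only Prtn3 reached 100 CPM in TANs.

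Gene lists in BM gave lower counts of falls with library totals. Among all genes 9.82% fell and 12.9% rose with TMM, and 4.19% and 27.4% with library totals. Of 18 neutrophil identity genes, 11 fell and 1 rose, and 6 fell and 1 rose with library totals. Of 18 secondary and tertiary granule genes, 9 fell and 0 rose, and 4 fell with library totals. Of 19 glycolysis genes, 7 fell and 0 rose (Slc2a1, Hk2, Slc2a3, Pkm, Pfkfb4, Slc16a3 and Pgk1), and 3 fell with library totals. Of 18 hypoxia-responsive genes, 3 fell (Bnip3, Ankrd37 and Egln3) and 1 rose (Hilpda), but 2 fell and 3 rose with library totals. Of 96 genes of the MDSC signature, a published one that the study applied to these cells, 43 fell and 4 rose, and 17 fell and 8 rose with library totals. Of 34 type I interferon response genes, 9 fell (Gbp2, Isg15, Oasl1, Oas3, Samd9l, Slfn1, Slfn4, Rsad2 and Ifit3b) and 1 rose (Ifit2), with a median of -0.24 where the medians in TANs were above 0, and with library totals 6 fell and 9 rose, with a median of 0.05. Of 21 integrated stress and ER chaperone genes, 9 rose and 2 fell (Asns and Sesn2), and 12 rose and 2 fell with library totals. Of 23 trafficking and adhesion receptor genes, 11 fell and 2 rose, but 3 fell and 4 rose with library totals.

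TANs differed widely from BM neutrophils chosen by the same rule. As a description, since tissue, dissociation, Cell Ranger version and S100 share differ as well, 664 of 1948 genes (34.1%) were at least 2-fold higher in vehicle TANs than in both vehicle BM libraries and 334 (17.1%) at least 2-fold lower. All 22 measured genes of the tumor neutrophil state list and all 13 of the NF-kB list were higher in TANs, as were 21 of 22 immediate early genes and 12 of 15 hypoxia-responsive genes. Markers of other cells were also higher in TANs, with 5 of 6 macrophage markers (C1qa, C1qb, Apoe, Ctsl and Csf1r, median log2 ratio 5.01) and Krt18 of tumor cells. C1qa was at 354 CPM in TANs and 0.15 and 0.18 in BM, and Apoe at 3912 CPM against 39.4 and 41.7. The part of RNA from other cells in the differences from BM was not tested. Il1b was at 25327 CPM in TANs and at 240 and 234 CPM in BM. Cxcl2, a neutrophil-attracting chemokine gene, was at 23452 CPM against 40.0 and 34.8, and Hilpda, a lipid droplet protein induced by hypoxia, at 1000.2 CPM against 1.06 and 1.00. The checkpoint ligand gene Cd274, which encodes PD-L1, was at 136 CPM against 4.30 and 4.44. Granule genes were lower in TANs, with 14 of 17 secondary and tertiary and 5 of 5 primary granule genes. The cathelicidin gene Camp was at 3.57 CPM in TANs, from 1 UMI, and at 25768 and 26236 CPM in BM, and Ly6g was at 46.4 CPM against 1732 and 1752. Slc7a11, Ankrd37 and Bnip3, which were lower with the inhibitor, were higher in TANs than in BM, at 1297 CPM against 50.1 and 51.2 for Slc7a11, 168 against 6.67 and 7.93 for Ankrd37 and 225 against 15.1 and 15.2 for Bnip3. Chil1 and Il1f9 were at similar levels in both tissues, with 282 CPM each in TANs and 264 and 271 CPM for Chil1 and 225 and 235 CPM for Il1f9 in BM.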

How the data were processed

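The authors aligned reads to mm10, counted UMIs and assigned cells to samples with Cell Ranger multi (7.1.0 for tumors and 7.2.0 for BM per the file headers) and deposited raw UMI counts per gene and cell. The submitters' processing notes also name Seurat. The deposited counts were used as they are. Kept cells had 201 to 5999 genes detected, with mitochondrial genes at no more than 10% of UMIs, and the TAN rule was applied to them. No doublet caller was run, and the limits on C1q and keratin UMIs remove the doublets that those genes show. UMIs were summed over TANs and scaled to the total of the sum. Depth was 142135 to 376722 UMIs per TAN sum, which limits the precision for genes near 100 CPM. Ratios have exact conditional binomial intervals, shares exact Clopper-Pearson intervals and CPM exact Poisson intervals, at 95%, for counting error only, and a count of 0 was set against a floor of 3 UMIs. BM cells under the same rule were summed per library and tested with edgeR 4.0.16 (filterByExpr, TMM and quasi-likelihood over all 6 libraries, Benjamini-Hochberg adjustment, R 4.3.3), with DESeq2 1.42.0 as an alternative. The steps were tested on simulated data. Python 3.11.15, NumPy 2.4.6, pandas 2.3.3 and SciPy 1.17.1 were used. Coordinates are of GRCm38 (GENCODE), and promoters are from RefSeq.

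Genes were named by rule, namely the 12 higher and 12 lower with the largest smaller ratio of the pairs (up to 5 each way for anti-PD-1), the 12 leading genes of TANs, up to 4 per list and genes that the study names for neutrophils. The genes given for TANs against BM neutrophils were picked after their values were seen. The members, lists and tests were chosen with earlier results of these data known. Replicate numbers in BM did not pair the libraries, and the 6 libraries of lineage-negative c-Kit+ BM cells were not used here.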

Additional observations from a re-analysis of the deposited data

Results flagged for a closer look

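In 8 genes, levels in TANs differed in opposite directions in pairs that share no library, each by at least 2-fold. Of 2135 genes these were 3 (0.141%) with IACS-70654 and 7 (0.328%) with anti-PD-1. The differences between the pairs were not tested. With IACS-70654, the log2 ratios without and with anti-PD-1 were -1.56 and 1.21 for the chemokine gene Cxcl3, -1.59 and 1.18 for Ctcf, which encodes a chromatin insulator protein, and -1.32 and 1.499 for the chaperonin gene Cct8. Cxcl3 had 74, 14, 48 and 42 UMIs in 12, 8, 13 and 12 TANs with vehicle, IACS-70654, anti-PD-1 and the combination, and 41.9% of those with vehicle came from 1 TAN. With no S100 threshold and at least 4 marker UMIs its ratios turned to 0.023 and -0.53. Ctcf and Cct8 had only 5 and 6 UMIs with IACS-70654.

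With anti-PD-1, the log2 ratios without and with IACS-70654 were -1.05 and 1.72 for Cxcl3, -1.28 and 1.55 for Cct8, -1.31 and 1.49 for AI839979, 1.28 and -1.33 for the interferon-induced chemokine gene Cxcl10, 1.40 and -1.75 for Retnlg, 1.20 and -1.65 for the choline kinase gene Chka, and 1.21 and -2.04 for the glypican gene Gpc3. Some of these ratios rest on few UMIs. With the combination, Chka had 7 UMIs and Gpc3 had 4 in 3 TANs. AI839979 had 7 UMIs with IACS-70654 and 18 with the combination, 44.4% of the latter in 1 TAN. Cxcl10 had 48, 143, 157 and 52 UMIs in 12, 8, 12 and 8 TANs, with 31.2% to 50% of them in 1 TAN of each library. Retnlg had 261, 59, 926 and 16 UMIs in 30, 7, 40 and 5 TANs, so the highest and the lowest value were both in libraries with anti-PD-1.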

How the results depend on the processing

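In the 2 IACS-70654 pairs the share of TANs was lower under each of the alternatives tried. With no S100 threshold and at least 4 marker UMIs (named below as no S100 threshold), its log2 ratio was -1.99 and -2.10. In that alternative the ratio of the combination to IACS-70654, whose interval includes 0, went from -0.19 to 0.15. Of the 41 lower genes, 7 met the rule under all 17 alternatives (Chil1, Il1f9, Slc7a11, Asprv1, Dhx40, Mirt2 and Igfbp6), and 0 of the 38 higher genes did. The counts of genes higher and lower with IACS-70654 in both pairs became 71 and 94 with no S100 threshold and at least 4 marker UMIs (6 and 30 of them among the 38 and 41), 10 and 88 with TMM, 9 and 24 at 200 CPM or more, and 15 and 27 with 91 TANs per library thinned to 1000 UMIs or fewer, and 23 were higher without the TAN with the most UMIs of a gene. Fewer genes were tested at 200 CPM and fewer cells were summed with 91 TANs, and for the other settings the cause was not tested. The 3 genes higher with anti-PD-1 became 8 with S100 genes at 5% or more, at 50 CPM or more or with no minimum, 6 with more than 500 genes per TAN, 5 with C1q under 3 UMIs or scaled without S100 and mitochondrial genes, and 1 with no S100 threshold, at 200 CPM or without the top TAN. The 1 lower gene became 3 with S100 genes at 5%, with 91 TANs or without the 5% of TANs with the most UMIs, 2 with C1q under 3 UMIs or without the top TAN, and 0 with S100 genes at 1%, at least 4 marker UMIs, no keratin UMI, no S100 threshold or 200 CPM. Of the 79 genes called with IACS-70654 in both pairs, 10 had a ratio of the other sign under at least 1 alternative, 7 higher and 3 lower, among them Areg (-2.71), Ssr1 (-0.99) and Gpr132 (-0.057), which the naming rule leaves out. Among the named genes reversals came in 17 cases. With no S100 threshold these were Igtp (-0.17, IACS-70654/vehicle), Cxcl3 (0.023 and -0.53 in the IACS-70654 pairs), Pgk1, Acsl1 and Csf1r (0.23, -0.16 and 0.21, combination/anti-PD-1) and Ifitm6 and Stim2 (-0.99 and -0.044, combination/IACS-70654). With S100 genes at 5% they were Ccl2 (-1.41, IACS-70654/vehicle) and Tent5a (-0.77, combination/anti-PD-1). With 91 TANs they were Dip2c (-0.0096, IACS-70654/vehicle) and Ltf (0.60, combination/anti-PD-1), without the 5% of TANs Ltf and Irf8 (0.49 and -0.094, combination/anti-PD-1), Retnlg (0.47, IACS-70654/vehicle) and Ifitm6 (-0.040, combination/IACS-70654), and without the top TAN Ccl2 (-1.96, IACS-70654/vehicle). In BM, library totals gave 3860 rises and 590 falls, of which 2412 calls were shared with the 3206 under TMM. The replicate block gave 1803 and 1373, with 3152 calls shared, DESeq2 1260 and 1141, and leaving out 1 library 1375 to 1936 and 1072 to 1453. Replicate numbers did not pair the libraries (correlations of deviations -0.02, 0.06 and -0.02). The alternatives with no S100 threshold, without the top TAN of a gene and with library totals in BM were chosen after seeing the data.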
